A study of Arabidopsis thaliana with 3 samples.

Results

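Flower buds of ABAP1OE plants were compared with those of wild-type (WT) plants at stage 13, as 1 of the 3 stages of an Arabidopsis thaliana microarray series. The members described are all transcript probes with a flower bud ratio, 25557 of the 26545 probes of the array once control spots (71) and probes without a ratio were left out. Each value is a log2 ratio of ABAP1OE over WT, so that -1 is a 2-fold lower and 1 a 2-fold higher level in ABAP1OE buds. Both genotypes were Col-0. ABAP1OE plants carried the ABAP1 coding sequence under the 35S promoter of cauliflower mosaic virus, which is active in most cells of the plant, on a vector with an eGFP selection marker, and WT plants carried no construct. The study could not recover homozygous ABAP1OE plants. RNA came from pools of buds, and the authors combined 3 biological replicates, with each genotype labelled with both dyes, into 1 ratio per probe. No test, p-value or error between plants can therefore be given for any gene. The open flowers (stage 14) and the siliques (stages 15 to 16), treated the same way and also combined into 1 ratio each, are used only to place the bud values.

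ABAP1 is a plant protein with armadillo repeats and a BTB domain. It binds transcription factors and represses genes with them, among them genes of the complex that licenses DNA for replication, and in leaves it restrains cell division. At stage 13 the flower is about to open. Its pollen is mature, and its ovules hold an embryo sac with an egg cell, synergids, antipodals and a central cell.

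Most ratios lay close to 0. Their median was 0 over all transcript probes, 25% were at or below -0.18 and 25% at or above 0.15, and 94.2% were under 2-fold in size. Ratios 4.64-fold or more below WT, about -2.2 on the log2 scale, were kept apart, because 29 of the 36 empty spots, which carry no probe, lay there too (80.6%, against 2.26% of transcript probes). Within that limit on either side, 614 transcript probes (2.4%) were 2-fold or more lower in ABAP1OE buds, and 266 (1.04%) were 2-fold or more higher. In the platform annotation the lower probes comprised 130 that list 1 gene, 213 that list several genes and 271 that list none, and the higher probes 60, 88 and 118. In these 3 kinds of probes 68.4%, 70.8% and 69.7% of the probes past 2-fold were on the lower side.

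**Figure D1:**
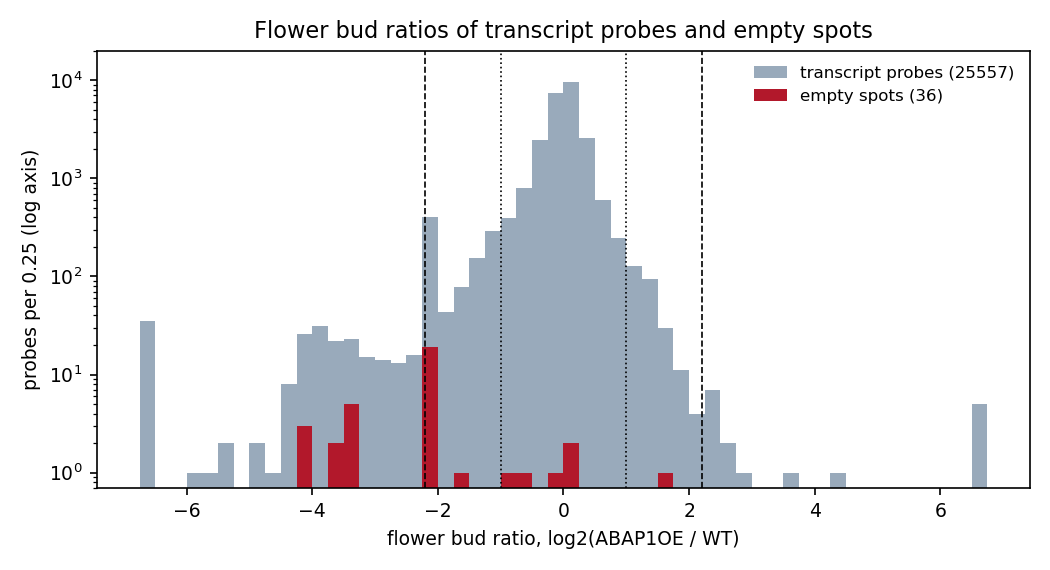
Flower bud log2 ratios of ABAP1OE over WT for transcript probes (grey) and empty spots (red), as the number of probes per 0.25 on a log axis. Dotted lines mark 2-fold and dashed lines 4.64-fold, and 29 of the 36 empty spots lie at or below the lower dashed line.

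Genes were named from probes that list 1 gene only, and the probes of a gene were averaged. This gave 5413 genes, of which 131 (2.42%) were 2-fold or more lower and 56 (1.03%) 2-fold or more higher within the limit of 4.64-fold. The lower genes were 70.1% of both together. Lower genes outnumbered higher ones in every size class, with no steady rise from the smallest. Between 1 and 1.2 in size there were 50 lower and 24 higher genes (2.08 lower per higher gene), and between 1.2 and 1.4 there were 27 and 17 (1.59). From 1.4 to 1.6 there were 26 lower and 9 higher genes, from 1.6 to 1.8 there were 12 and 3, from 1.8 to 2 there were 9 and 2, and above 2 there were 7 and 1 (7.0). Many genes also lay on probes that list further genes. With these averaged in, 53 of 58 lower genes having such a probe, and 31 of 32 higher genes, were under 2-fold. At the edge of 2-fold, AT3G21570 and AT3G13280 (-1.0) were inside and AT2G41650 (-0.99) was outside on the lower side. On the higher side AT1G41820 (1.01) was inside and AT4G11390 (0.99) outside. At the edge toward the empty spots, AT1G75870 (-2.19) was the lowest gene kept, and 67 genes stood at exactly 4.64-fold lower.

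ABAP1 itself was on no named probe, so the overexpression could not be checked on this array. The flower label could not be checked either, since a ratio between genotypes gives no level of expression in the tissue. Of the 17 genes on the fixed floral organ identity list, CLV3, a signal peptide of the floral meristem, was the only one with a probe of its own, at 0.00 in buds. The fixed markers of photosynthesis, of sperm cells, of embryo and seed storage and of DNA replication had 0 members on probes listing 1 gene.

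The egg apparatus and antipodal list had its measured genes below WT in ABAP1OE buds. Of the 19 genes listed, 4 had a probe of their own. All 4 were below 0 (46.8% of all genes), with a median of -1.13 against 0.01 over all 5413 genes, and 2 of the 4 were 2-fold or more lower (2.42% of all genes). UBC31, a ubiquitin-conjugating enzyme gene known from antipodal cells, was at -2.19 in buds, -0.43 in open flowers and 0.36 in siliques. Its bud value rests on 1 probe and lay just inside the limit toward the empty spots, whose median was -2.2. EC1.1, one of the small cysteine-rich proteins that the egg cell releases at fertilization, was at -1.61 in buds, -0.37 in open flowers and -0.28 in siliques. Its relative EC1.5 was at -0.66 in buds, 0.03 in open flowers and -0.53 in siliques. AT3G24510, another member of the list, went the other way over the stages, with -0.38 in buds and -1.36 in open flowers. Each of the first 3 genes was thus lowest in buds. With a probe that it shares with related genes averaged in, EC1.1 was at -1.05 and EC1.5 at -0.52, and 3 probes that list only genes of this marker list were at -0.50, -0.49 and -0.39. With those shared probes kept, the median of the list was -0.50.

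The central cell list had 2 measured genes. AGL61, a MADS-box factor of the central cell and among the genes the study follows, was at -0.40 in buds, 0.06 in open flowers and -1.79 in siliques. With a shared probe averaged in, its bud value was -0.0055. DME, a DNA glycosylase that removes methylated cytosine in the central cell, was at -0.07 in buds. Neither was 2-fold lower in buds, and AGL61 was lowest in siliques. In pools of whole buds, fewer cells of a type and less RNA per cell cannot be told apart.

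The mature pollen list of 35 genes was measured by 7 probes, all below 0 in buds. PLIM2b, which bundles actin in pollen, was the only listed gene with a probe of its own, just under 2-fold at -0.98 in buds, -0.29 in open flowers and -0.15 in siliques. Another 6 probes listed only genes of this marker list, several genes each. They were at -2.2, -1.34, -1.05, -0.94, -0.70 and -0.36 in buds, so that 2 of the 6 were 2-fold to 4.64-fold lower and the lowest was in the range of the empty spots. Of all probes that list several genes, 2.84% were 2-fold to 4.64-fold lower and 50.0% were below 0. In open flowers these probes lay between -2.2 and 0.33. SWEET8, a sugar exporter needed for pollen wall formation, was lower by a like amount at each stage, with -0.83 in buds, -0.78 in open flowers and -0.77 in siliques. With a shared probe averaged in it was at -0.67 in buds.

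Further lower genes are annotated for pollen or reproduction by the study's own gene list, which was chosen on these same arrays and is not independent evidence of their direction. AT1G29140, of the pollen allergens and extensins related to Ole e 1, was at -1.36 in buds, -1.01 in open flowers and -0.52 in siliques. The S1 family gene AT5G26060, of a family named after the pistil self-incompatibility protein of poppy, was at -1.29, -0.98 and -0.79 over the same stages, and the bZIP transcription factor gene AT1G35490 at -1.51, -0.86 and 0.01. All 3 were lowest in buds and closer to 0 at each later stage. AT5G26060 was at -0.62 and AT1G35490 at -0.90 in buds with shared probes averaged in. RALFL25, which is not on the study's list, is a peptide of the rapid alkalinization factor family of cell signals. It was at -1.08 in buds, -0.71 in open flowers and -0.51 in siliques. Its bud value with a shared probe was -0.76. The other RALF-like genes with a probe of their own, RALFL32 (0.03), RALFL27 (0.12) and RALFL34 (0.24), were near WT in buds. AT2G29790, annotated as a pseudogene of the maternally expressed gene family, was at -1.12 in buds, 0.19 in open flowers and -0.11 in siliques.

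**Figure D2:**
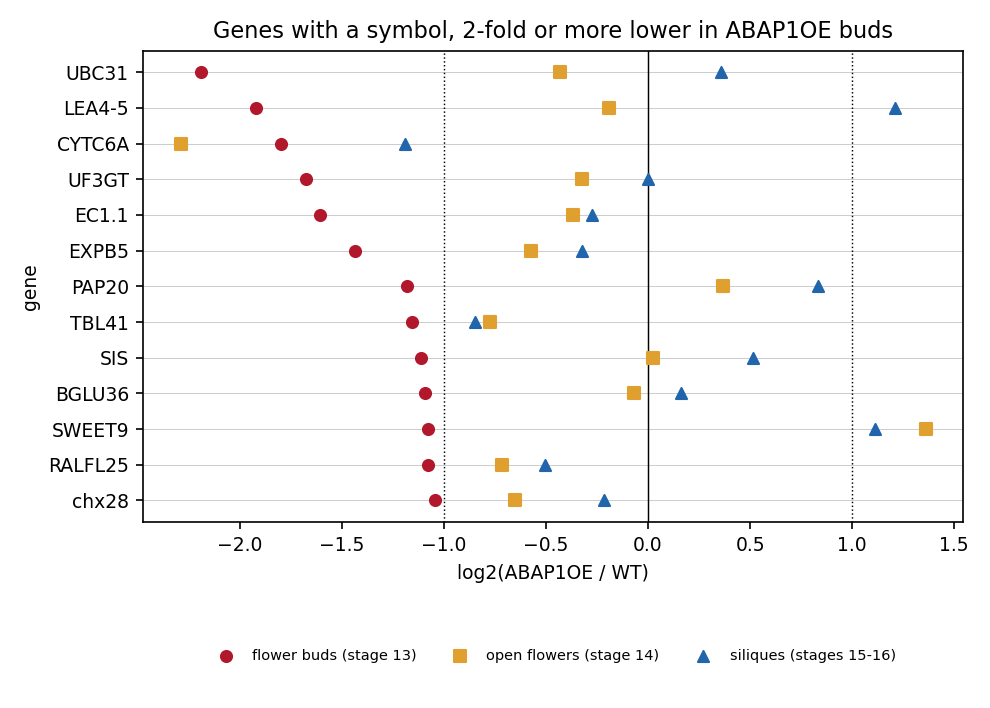
Log2 ratios of ABAP1OE over WT at 3 stages for the 13 genes with a gene symbol that were 2-fold to 4.64-fold lower in flower buds. Each point is 1 combined ratio, dotted lines mark 2-fold, and SWEET9 and LEA4-5 lie 2-fold or more above WT at a later stage.

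Of the cell wall lists, those of expansins and of glycosyl hydrolases each had 1 lower gene. EXPB5, a beta-expansin that loosens the wall, was at -1.44 in buds, -0.58 in open flowers and -0.32 in siliques. It was the only one of 13 expansin, xyloglucan and cellulose synthase-like genes past 2-fold in buds, and the median of the 13 was 0.04. TBL41, of the trichome birefringence-like proteins that acetylate wall polysaccharides, was at -1.16 in buds, -0.77 in open flowers and -0.85 in siliques. Its bud value with a shared probe was -0.70. BGLU36, a beta-glucosidase gene, was at -1.09 in buds and within 0.16 of WT at the later stages. The endoglucanase family genes GH9A4 (-0.96) and GH9B11 (-0.82, or -0.38 with shared probes) were below WT in buds, while GH9C1 (0.56) and GH9B8 (0.68) were above WT, and the median of the 14 glycosyl hydrolase genes was -0.21. Outside these lists, and picked from the study's own list, AT5G64790, annotated as a family 17 glycosyl hydrolase, was at -1.44 in buds. AT2G10970, an invertase and pectin methylesterase inhibitor picked in the same way, was at -1.37. The study's list was chosen on these arrays, so their direction is no separate result. Both were closer to 0 in open flowers, at -0.82 and -0.69, and AT5G64790 was at -0.75 in buds with a shared probe. The pectin methylesterase and inhibitor list of 29 genes had 0 with a probe of their own. Its 4 shared probes had a median of -0.80 in buds, and 3 were below 0 (50.0% of all probes that list several genes). Of the 4, 1 was 2-fold to 4.64-fold lower (2.84% of such probes) and 1 was in the range of the empty spots (2.40%).

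LEA4-5, of the late embryogenesis abundant (LEA) proteins that accumulate when cells lose water, was at -1.92 in buds, -0.19 in open flowers and 1.21 in siliques. It had no shared probe. The other 3 LEA genes of the list were at WT level in buds: the dehydrin gene LTI30 (-0.03), AT1G54410 (0.06) and AT2G44060 (0.08). Of these, LTI30 was at 1.39 in siliques, where LEA4-5 was also above 2-fold higher. Single genes with stress or storage terms were picked from the study's own list, which was chosen on these arrays, so that their direction is no separate result. AT1G57550, of the low temperature and salt responsive proteins, was at -1.52 in buds and 0.99 in open flowers. AT1G52680 (-1.05), related to LEA proteins, and AT2G46300 (-1.08), a LEA hydroxyproline-rich glycoprotein gene, were near the edge of 2-fold, as was the dehydration-responsive ERD4 family gene AT3G54510 (-1.02). The oleosin gene AT2G25890, of the proteins that coat oil bodies, was at -1.16 and the HSP20-like chaperone gene AT5G37670 at -1.18, with AT5G37670 also 2-fold lower in open flowers (-1.06). With shared probes AT5G37670 was at -0.65 and AT2G46300 at -0.71 in buds. The cupin gene AT5G26700, of a family that includes seed storage proteins, was lower still, at -1.82 in buds, -0.80 in open flowers and -0.28 in siliques.

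Lipid-active enzymes of the GDSL type were among the lower genes by the same annotation, and 3 were picked from the study's own list. The name-based list of 50 GDSL lipases and phospholipases had 0 genes with a probe of their own, so no share of this type can be given. AT1G20130 was at -1.73 in buds, 0.52 in open flowers and -1.01 in siliques, AT2G19010 at -1.42, -0.59 and -0.38, and the related SGNH hydrolase gene AT5G42170 at -1.16, 0.31 and 0.19. Of these picked genes, only AT2G19010 kept the same sign at all 3 stages with ever smaller values.

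Of the membrane transporter lists, 1 of 6 sugar transporters and 1 of 5 ion and proton transporters were 2-fold or more lower in buds (2.42% of all genes), and 0 were higher. SWEET9, the sucrose exporter of nectaries, was at -1.08 in buds but at 1.36 in open flowers and 1.11 in siliques, so it lay 2-fold or more on opposite sides of WT. AT5G44630, the other nectary marker with a probe of its own, was at -0.06 in buds. Of the 6 sugar transporter genes with a probe of their own, SAG29, also a SWEET, was at -0.57 and TMT1, a sugar transporter of the vacuole membrane, at -0.29, while SWEET10 (0.00) and SWEET2 (0.18) were near WT. The median of the 6 was -0.43, or -0.23 with probes shared within the list kept. The cation/proton exchanger gene chx28 was at -1.04 in buds, -0.65 in open flowers and -0.21 in siliques. Averaged with a shared probe its bud value was -0.53. Its relatives differed, with CHX20, which acts in guard cells, at -0.82 and CHX16 at 0.38. The zinc transporter family genes ZIP6 (-0.08) and ZIP9 (0.18) were near WT, and the median of the 5 was -0.08, against -0.81 with 4 shared probes kept. Outside these lists, and picked from the study's own list, AT1G71680, an amino acid transporter gene, was at -1.45 and AT3G05150, a sugar transporter gene, at -1.27 in buds, and both were at -0.67 or nearer to WT later. AT3G29070, of the p24 proteins of vesicle traffic, was at -1.29 in buds, -0.58 with a shared probe, and 0.21 in open flowers.

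Enzymes of small-molecule metabolism were represented by few lower genes. UF3GT, a UDP-sugar dependent flavonoid glycosyltransferase, was at -1.67 in buds, -0.32 in open flowers and 0.00 in siliques. With a shared probe it was at -0.88 in buds. It was the only one of 20 UGT family genes past 2-fold. Next to it came UGT84A1 (-0.73) and UGT73B1 (-0.59), UGT73C1 was highest at 0.58, and the median of the family was -0.12. CYTC6A, which encodes a cytochrome c6-like protein of the chloroplast, was low at every stage, with -1.80 in buds, -2.29 in open flowers and -1.19 in siliques. Its open flower value lay in the range of the empty spots. PAP20, a purple acid phosphatase gene, was at -1.18 in buds, 0.37 in open flowers and 0.83 in siliques. Picked from the study's own list, AT1G26320, a zinc-binding dehydrogenase gene, was at -1.53 in buds. AT3G51070, of the S-adenosylmethionine-dependent methyltransferases and picked in the same way, was at -1.12, or -0.61 with a shared probe.

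SIS, a salt-induced serine-rich protein gene, shows how averaging acts. Its mean in buds was -1.11, from 1 probe at -2.64 and 2 probes at -0.34. AT2G05810 (-1.87, from -4.07 and 0.33), AT3G62710 (-1.39, from -2.2 and -0.58) and AT5G51840 (-1.10, from -2.2 and 0.01) were likewise carried past 2-fold by a single probe in the range of the empty spots. Without such probes 127 of the 131 genes were left. AT5G44970 (-1.05) and AT5G50140 (1.16) had 2 probes of equal value each.

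Of the 131 lower genes 118 had no gene symbol, the same share (90.1%) as over all 5413 genes. AT1G75870 was at -2.19 in buds, -0.73 in open flowers and -0.07 in siliques. AT2G15670 was at -2.17, -0.86 and -0.40, and AT4G12340 at -2.09, -0.76 and -0.20, over the same stages. AT4G17260 differed from these in being low throughout, with -2.09 in buds, -1.57 in open flowers and -2.35 in siliques. AT1G29480 (-2.08), AT2G46850 (-2.05), AT2G19220 (-1.94), AT3G44970 (-1.94), AT1G35210 (-1.89), AT5G45910 (-1.88) and AT1G48700 (-1.83) completed the 15 lowest together with UBC31, LEA4-5, AT2G05810 and AT5G26700. Of these 15, AT4G17260 and AT3G44970 were also 2-fold or more lower in open flowers, AT3G44970 at -2.2 in the range of the empty spots. With shared probes averaged in, AT2G15670 was at -0.98, AT2G19220 at -0.99, AT1G35210 at -0.92, AT1G48700 just under 2-fold and AT2G46850 at -1.09.

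Of the 56 higher genes 54 had no gene symbol (96.4%, against 90.1% of all genes). PUB24, a U-box ubiquitin ligase known to dampen immune responses, was at 1.07 in buds, 0.56 in open flowers and 0.68 in siliques. The serine carboxypeptidase-like gene scpl44 was at 1.06 in buds, 0.66 in open flowers and 0.75 in siliques. Both stayed above WT at every stage, but with a shared probe averaged in they were at 0.29 and 0.57 in buds. Among the other 18 protease genes of that list, scpl33 was at 0.80 and scpl38 at -0.62, and the median of the list was 0.06.

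At the top of the higher genes, AT1G48200 was at 2.10 in buds, 1.71 in open flowers and 0.23 in siliques. AT4G09880 was at 1.99 in buds but 0.44 and -0.21 later, and AT4G16220 at 1.96, 1.66 and 0.77. AT1G26390 was high in buds (1.76) and siliques (1.74) with a lower value in open flowers (0.58). AT2G24460, whose nearest annotated relative is a RING finger gene, was at 1.70 in buds and 1.03 in open flowers. The other genes of the 15 highest were AT1G21323 (1.66), AT5G67430 (1.55), AT5G50270 (1.54), AT1G23830 (1.44), AT2G24780 (1.44), AT5G12240 (1.44), AT3G43750 (1.43), AT5G62110 (1.42), AT5G54020 (1.42) and AT1G59690 (1.4). With shared probes averaged in, AT4G16220 was at 0.94, AT1G59690 at 0.83, AT5G54020 at 0.83, AT5G50270 at 0.78 and AT1G23830 at 0.09. The peptidase S41 gene AT5G46390 (1.29) and the C1 domain gene AT4G11540 (1.01) were also higher in buds, and at 0.71 and 0.22 with shared probes. Both were picked from the study's own list.

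**Figure D3:**
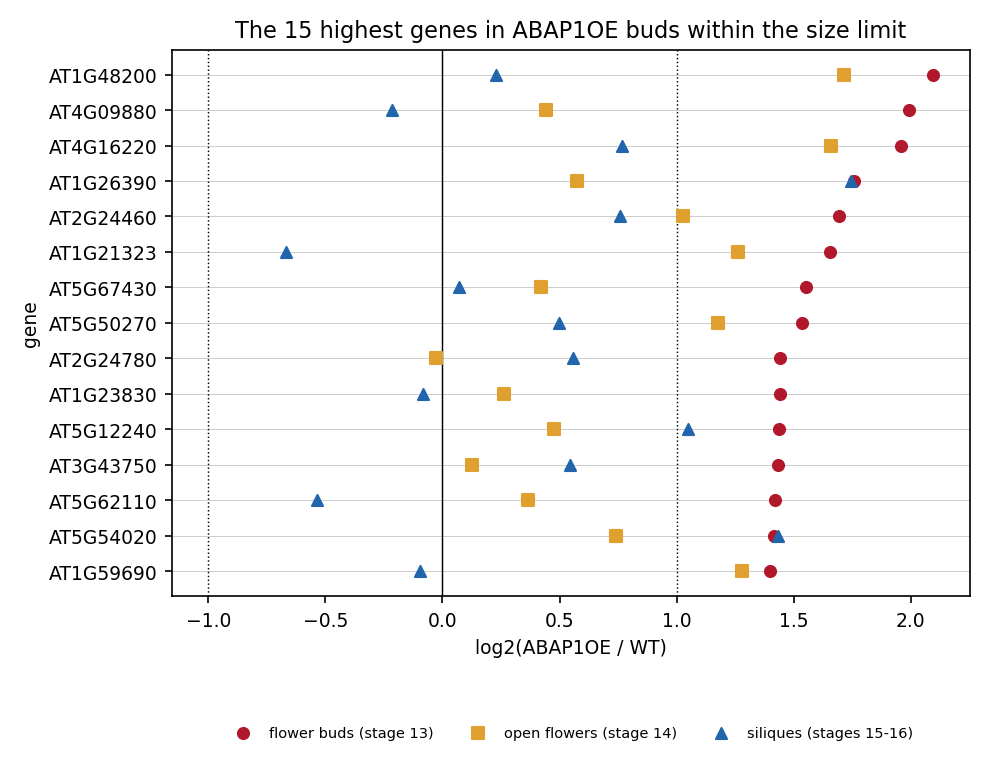
Log2 ratios of ABAP1OE over WT at 3 stages for the 15 genes with the highest flower bud ratios within 4.64-fold. Each point is 1 combined ratio, dotted lines mark 2-fold, and AT1G48200 and AT4G16220 lie above 1.6 in both buds and open flowers.

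Beyond 4.64-fold on the higher side stood 4 genes. AT1G18960, annotated as a myb-like regulator, was at 2.25 in buds, -0.04 in open flowers and -0.14 in siliques. AT2G47115 (2.58) and AT3G53770 (2.70) were also 2-fold or more higher in open flowers, at 1.10 and 1.86, while AT2G47115 was at 0.45 in buds with shared probes, and AT5G65250 was at 6.6, the upper limit of the deposited values, in buds and at -2.2 in open flowers.

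Family genes with a probe of their own had a median near WT in buds, but most listed genes had no such probe. Cytochromes P450 had 5 of 253 listed genes measured this way, and F-box and ubiquitin ligase proteins 17 of 229. Since 90.1% of all measured genes had no gene symbol, further members may lie outside the lists. Whether whole families lay near WT was therefore not tested. Of 50 families defined by gene names, 9 had no gene with a probe of its own and 19 had 5 or more. The 242 genes of all families had a median of 0.01, and 9 of them (3.72%) were lower and 2 (0.826%) higher, beside 2.42% and 1.03% of all 5413 genes. On probes of their own, medians of the 19 larger lists ran from -0.43 for sugar transporters to 0.30 for cytochromes P450, and 11 of the 19 had no gene from 2-fold to 4.64-fold on either side. Medians of the lists with fewer than 5 such genes ran from -0.57 (3 actin and myosin genes) to 0.40 (1 protein kinase).

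The lists of regulators and cell division genes below had medians near WT, but few of their genes had a probe of their own. These were 1 of 115 listed cell cycle genes and 5 of 98 DNA replication, repair and meiosis genes. Of a fixed list of 14 genes that the study follows, AGL61 alone had one, so the others were not measured this way. The 5 DNA replication, repair and meiosis genes ran from POLD3 (-0.32), a DNA polymerase delta subunit, to SPO11-2 (0.42), which makes meiotic DNA breaks, with a median of 0.01. The 10 histone and chromatin genes ran from the linker histone HIS1-3 (-0.28) to HIS4 (0.48), and HTR12, the centromeric histone, was at 0.01. Of 18 MADS-box genes, AGL103 (-0.87) and AGL77 (-0.76) were lowest within the limit and AGL95 (0.96) and GOA (0.65) highest, with a median of 0.09, or -0.12 with shared probes kept. With shared probes averaged in, AGL103 was at -0.22 and AGL95 at 0.21. The 6 bZIP genes of the name-based list lay between -0.23 for BZIP53 and 0.30 for bZIP52. FBL17, the F-box protein gene of the pollen cell cycle that the study discusses, was at -0.06, and PUB15, another U-box gene, at -0.88. The 17 ubiquitin-related genes had a median of -0.03, although UBC31 and UBC30 were their lowest members.

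Lists of defence and detoxification enzymes had medians on both sides of WT, and the UGT gene above was their only member past 2-fold. Of the 7 glutathione transferases, GSTU20 (0.64) and GSTU23 (0.63) were highest and GSTU28 (-0.44) lowest, with a median of 0.19. Among 5 cytochromes P450, CYP71B29 was at 0.83 in buds and 1.04 in open flowers, and CYP718 at 0.69 and 0.53. The 5 chaperone genes ran from -0.06 for DJ1D to 0.51 for CCS, the copper chaperone of superoxide dismutase, with a median of 0.25, or 0.04 with shared probes kept. The 4 genes of the phenylpropanoid and flavonoid list had a median of -0.15, between AT2G43570 (-0.44) and CHIL (0.68). AT2G43570, with the symbol CHI, was put there by name and is also in the next list, so it may be no flavonoid enzyme. The 3 disease resistance and pathogenesis genes had a median of -0.41, with AT2G43570 again lowest and PR-1-LIKE (0.33) highest. Of the name-based list of 167 small GTPase and regulator genes, 8 had a probe of their own. On these probes all 8 were within 0.14 of WT, from ARA6 (-0.14) to RAB6A (0.04). Of 6 probes that list several genes of this list, 1 was below 0. Another 1 was 2-fold or more higher, at 1.13 (1.17% of all probes that list several genes). With shared probes averaged in, PRA1.B6 was at 0.43.

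**Figure D4:**
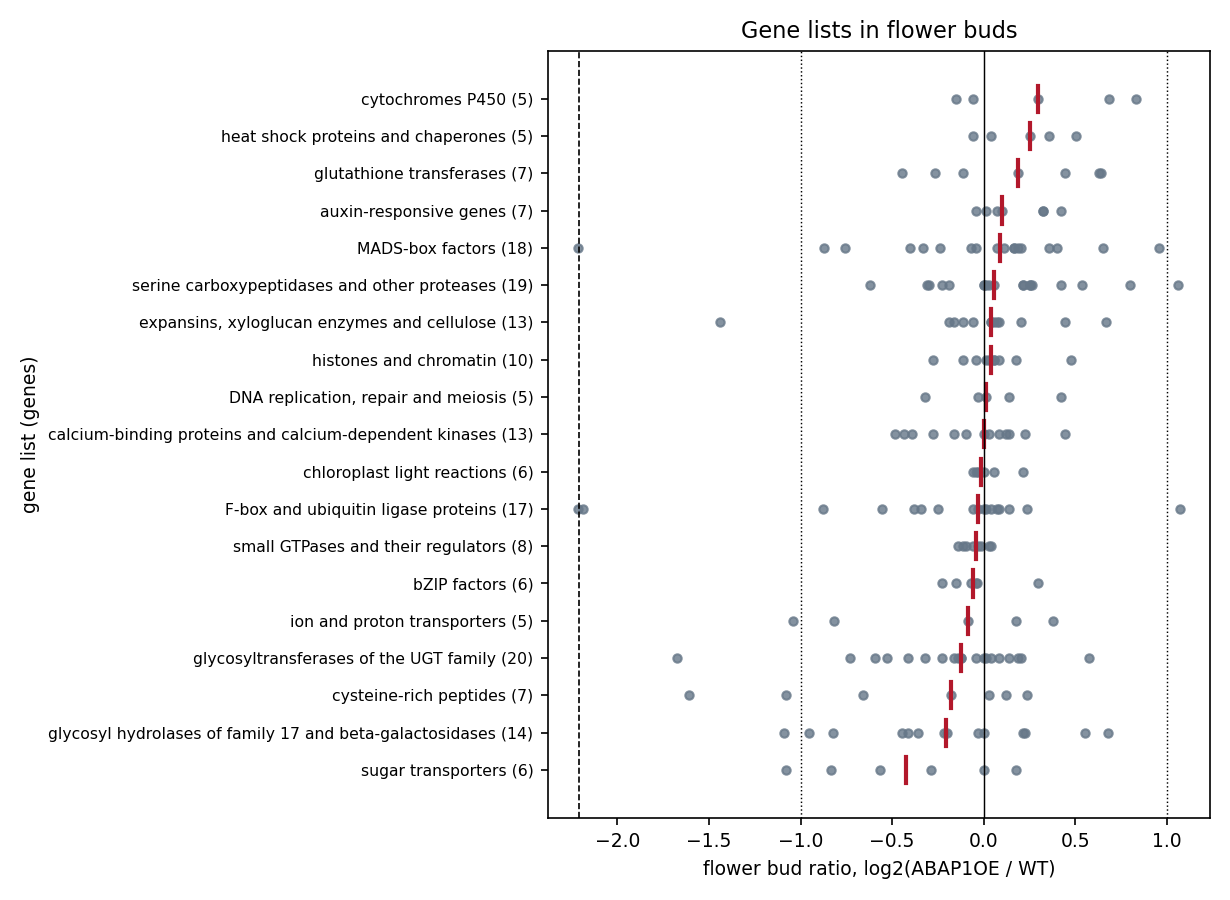
Flower bud log2 ratios of the members of the 19 gene lists with 5 or more genes on probes of their own, 1 point per gene, with the list median as a red bar. Dotted lines mark 2-fold and the dashed line 4.64-fold lower, and medians run from -0.43 for sugar transporters to 0.30 for cytochromes P450.

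The bud genes were followed at the later stages. The lower bud genes had a median of -0.42 in open flowers and -0.18 in siliques, against -0.01 over all genes at both. In open flowers 95 of the 131 were below 0 (72.5%, against 50.1% of all genes) and 23 (17.6%) were 2-fold or more lower, against 2.81% of all genes, with 7 of the 23 in the range of the empty spots. In siliques 85 were below 0 (64.9%, against 51.3% of all genes) and 13 (9.92%) were 2-fold or more lower, against 2.36% of all genes, with 5 of the 13 in that range. At both later stages 60 of the 131 (45.8%) were within 1.5-fold of WT, against 82.1% of all genes. The differences between stages rest on 1 ratio per stage and were not tested.

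Of all genes 39 were 2-fold or more lower at all 3 stages, 31 of them in the range of the empty spots in buds and 8 among the 131: AT4G17260, CYTC6A, AT5G14030, AT5G25870, AT3G62710, AT1G17630, AT3G44380 and AT5G51840. AT5G14030 was at -1.64 in buds, -4.27 in open flowers and -6.6, the lower limit of the values, in siliques, and AT5G25870 at -1.53, -2.06 and -3.49, so both were lowest in siliques. AT3G44380, at -1.16, -1.79 and -1.06, was the only one with no probe value in the range of the empty spots, and was at -0.53 in buds with a shared probe.

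The higher bud genes had a median of 0.43 in open flowers and 0.08 in siliques. In open flowers 45 of the 56 were above 0 (80.4%, against 47.2% of all genes), 12 (21.4%) were 2-fold or more higher, against 1.27% of all genes, and 0 were 2-fold lower. In siliques 31 were above 0 (55.4%, against 46.7% of all genes) and 4 (7.14%) were 2-fold or more higher, against 1.24% of all genes. AT5G24480 alone was 2-fold or more higher throughout, with 1.21 in buds, 1.2 in open flowers and 1.10 in siliques. Its bud value with a shared probe was 1.24.

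**Figure D5:**
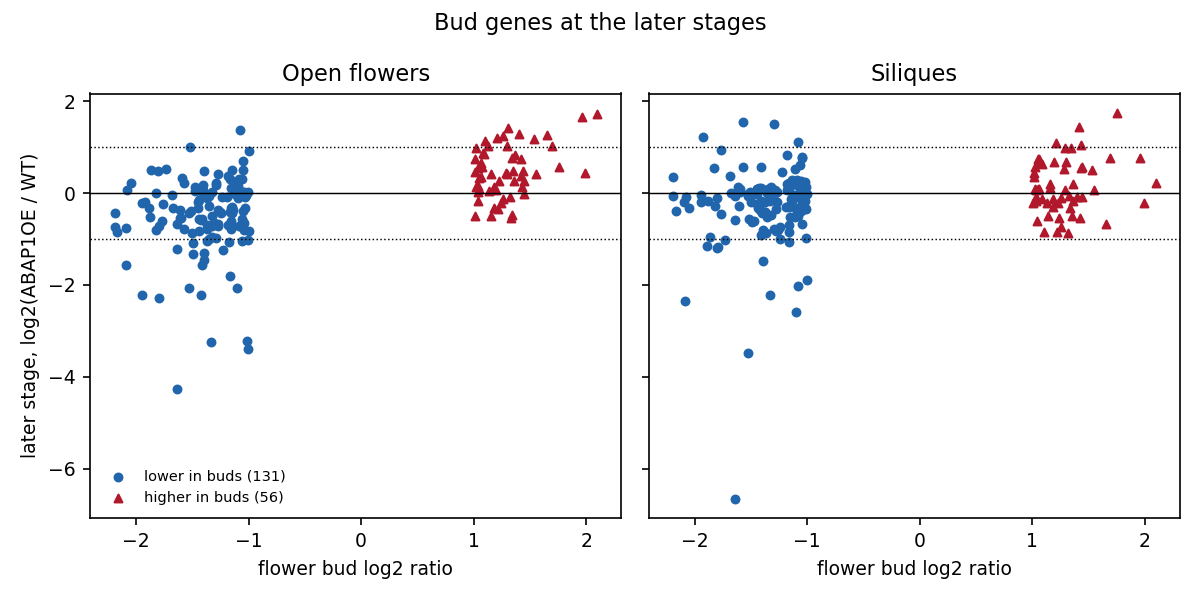
Log2 ratios in open flowers (left) and siliques (right) against the flower bud ratio for the 131 lower (blue circles) and 56 higher genes (red triangles) of the buds. In open flowers 95 of the 131 lower genes lie below 0 and 45 of the 56 higher genes above 0, and in siliques 85 and 31.

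Position and length were also set beside the bud values. Lower genes made up between 1.89% (chromosome 4) and 2.62% (chromosome 5) of the measured genes on each chromosome, and higher genes between 0.504% (chromosome 4) and 1.62% (chromosome 5). Among 1203 pairs of measured genes with consecutive locus numbers, 2 pairs had both genes in these groups, and each pair had 1 lower and 1 higher gene. AT1G78460, a SOUL heme-binding protein gene, was at -1.60 beside AT1G78470 at 1.29, and AT5G38950 was at -1.16 beside AT5G38960 at 1.22. With shared probes averaged in, AT1G78470 was at 0.63, AT5G38950 at -0.62 and AT5G38960 at 0.72. In the RefSeq annotation the median gene length was 1504 bases for lower, 1533 for higher and 1956 for all measured genes.

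In the range of the empty spots lay 107 genes, given apart since the empty spots cannot be told from them by value. AGL85, a MADS-box gene, stood at -2.2 in buds and open flowers and -4.19 in siliques, and UBC30 at -2.2, -2.2 and -0.66. BIN4, a gene of the topoisomerase VI complex needed for endoreduplication, was at -6.6, the lower limit of the deposited values, in buds but at 1.34 in open flowers and 3.18 in siliques. In open flowers 56 of the 107 (52.3%) were again in that range, against 1.77% of all genes. AT3G26860, an S1 family gene of the study's list, was at -2.22 in buds, -0.74 in open flowers and 0.29 in siliques.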

How the data were processed

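The deposited values are log2 ratios of ABAP1OE over WT, 1 column per stage, which the authors made from 2-colour arrays of long oligonucleotides by combining 3 biological replicates. RNA was amplified and coupled to dyes. How background was corrected and how arrays were normalized and averaged is unknown from the sources read. Spot intensities were not analysed, so the signal behind a ratio is unknown and the number of arrays limits the precision. The direction follows the sample titles and channels. In buds it was settled by the signs of the study's own gene list, and at the other stages it rests on the labels. The fold changes and p-values of that list were not used as results, and its descriptions served only to say what a gene is.

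Control spots were left out. Probes listing 1 gene (5784) were named through gene identifiers in the TAIR10.1 RefSeq table, of which 28 had no match, and averaged per gene. Probes of several genes (7497) named no gene. A gene was called lower or higher at 2-fold with a size under 2.21. Medians and counts of 50 name-based families and 11 marker lists were set beside those of all genes. Where probes of a gene differed (49 genes, sizes under 2.21), their SD was 0.17 (square root of the median variance), which describes probes and not plants. The families, markers, limits and members were chosen with earlier results of these data known. Genes named are the 15 lowest and 15 highest, the members of each list farthest from 0 (at most 4), genes the study names, and families with 3 or more lower or higher members. Other genes named were picked after their values were seen, among them the annotated genes of the study's list. The patterns of 2 families were corrected after their members were seen. Alternatives were other probe rules, sizes of 1.5-fold and 3-fold, means and shared probes. The counting was tested on simulated data, with Python 3.11.15, pandas 2.3.3, numpy 2.4.6 and scipy 1.17.1.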

Additional observations from a re-analysis of the deposited data

Results flagged for a closer look

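With 1 combined ratio per stage, no spread within a group could be examined. The genes below lay 2-fold or more on opposite sides of WT in flower buds and at a later stage, with all values within 4.64-fold. The difference between stages was not tested. SWEET9 had -1.08 in buds against 1.36 (open flowers) and 1.11 (siliques). LEA4-5 had -1.92 in buds and 1.21 in siliques. AT1G57650 was at -1.57 in buds and 1.54 in siliques, and at -0.68 in buds with its shared probe averaged in. AT1G16950 was at -1.29 in buds and 1.5 in siliques.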

How the results depend on the processing

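The 131 lower and 56 higher bud genes numbered 128 and 57 with the own probe farthest from 0, and 127 and 56 with probe values of 4.64-fold or more dropped before averaging. At 1.5-fold there were 310 lower and 209 higher genes (59.7% lower), and at 3-fold 30 and 6 (83.3% lower). With probes of several genes kept under each gene, 472 genes were lower and 83 higher (85.0% lower), where related genes repeat the value of 1 probe. Counting every transcript probe gave 614 and 266 (69.8% lower). The share of lower genes in the main setting was 70.1%, given without an interval because genes of 1 combined ratio are not replicates. At 1.5-fold instead of 2-fold at the later stage, 53 in place of 23 lower bud genes lay lower in open flowers, and 29 in place of 13 did so in siliques. Of 58 lower genes that also have a shared probe, 53 were under 2-fold with it averaged in and 0 changed sign. Of 32 such higher genes, 31 were under 2-fold and 2 changed sign, AT5G22990 (-0.0245) and AT2G03230 (-0.0208). The other 73 lower and 24 higher genes have no such probe, so this setting could not test them. Of 99 alternative list values, 87 were within the SD between probes of the main median and 12 were not. No paired analysis was possible because the replicates were combined into 1 column. The planned promoter search was not run, since no sequence was used here.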
